A study of Homo sapiens with 6 samples.

Results

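Genes that govern passage through the G1 phase of the cell cycle, 10 in all, were examined in the human hepatocellular carcinoma line Huh7 with and without knockdown of TRIM15. They are the cyclin D genes CCND1, CCND2 and CCND3, the cyclin E genes CCNE1 and CCNE2, the kinase genes CDK2, CDK4 and CDK6, the kinase inhibitor gene CDKN1B and the retinoblastoma gene RB1. They were taken by gene name from a table of 58735 gene rows, and each name matched 1 row. One group of 3 libraries carried a control short hairpin RNA (labelled shcontrol), and the other group of 3 a short hairpin RNA against TRIM15 (labelled shTRIM15). Both groups were Huh7 cells kept in RPMI-1640 with fetal bovine serum. Time after hairpin delivery, the number and sequences of the hairpins, and whether the libraries of a group came from separate cultures are not stated by the labels. P-values therefore measure the spread between these libraries, which may be technical.

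Cyclins are the activating subunits of cyclin-dependent kinases. D-type cyclins pair with CDK4 and CDK6 and respond to growth signals, and their kinases begin the phosphorylation of the RB1 protein. E-type cyclins pair with CDK2 later in G1, complete that phosphorylation and release E2F factors, which switch on genes of DNA synthesis. CDKN1B encodes an inhibitor that binds cyclin E and CDK2 complexes and is also held by cyclin D complexes. In liver cancer CCND1 and CCNE1 are among the genes that are recurrently amplified or overexpressed. Transcript levels alone were measured here, not protein amount, kinase activity or RB1 phosphorylation.

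The D and E cyclins differ in how their proteins start. The LxCxE motif, through which D cyclins bind the pocket of the RB1 protein, was searched for in the longest complete coding sequence of the genes in GENCODE release 29. It was found once in each of CCND1, CCND2 and CCND3, and not in CCNE1, CCNE2, CDK2, CDK4, CDK6, CDKN1B or RB1. The first 30 coding bases follow here for CCND1 and CCND3, the D cyclins with reads in these libraries, and for CCNE1. The codons of the motif are in capitals (bases 13 to 27 in CCND1 and 7 to 21 in CCND3).
CCND1: atggaacaccagCTCCTGTGCTGCGAAgtg
CCND3: atggagCTGCTGTGTTGCGAAggcacccgg
CCNE1: atgccgagggagcgcagggagcgggatgcg
No 50-base word of any member's annotated transcripts occurred in the transcripts of another member. CCND1, CCNE1, CCNE2, CDK2, CDK6, CDKN1B and RB1 shared no such word with any other annotated gene on the same strand, while CDK4 shared 4 of 3506 words and CCND3 shared 8 of 6048. CCND2 shared 940 of 7106 words (13.2%) with AC008012.1 and CCND2P1.

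Promoter windows of 300 bases, from 250 before to 50 after an annotated start, were on hand for 6 members (RefSeq, GRCh38.p14), with 9 windows in all. The window of CCNE1 and 1 of 2 windows of CDK6, genes which rose in the knockdown, and that of CDK4, whose change was smaller, are shown as the 250 bases before the start, 5′ to 3′ on the gene's strand. Capitals mark the GC box GGGCGG and the E-box CACGTG, each searched on both strands.
CCNE1 (chr19:29811741-29811990, plus strand): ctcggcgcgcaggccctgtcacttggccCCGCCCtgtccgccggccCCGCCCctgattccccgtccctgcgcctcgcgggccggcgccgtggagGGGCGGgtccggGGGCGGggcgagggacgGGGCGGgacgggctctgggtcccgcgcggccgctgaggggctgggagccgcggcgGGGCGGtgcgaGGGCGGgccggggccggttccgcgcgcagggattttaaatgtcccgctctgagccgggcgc
CDK6 (chr7:92836574-92836823, minus strand): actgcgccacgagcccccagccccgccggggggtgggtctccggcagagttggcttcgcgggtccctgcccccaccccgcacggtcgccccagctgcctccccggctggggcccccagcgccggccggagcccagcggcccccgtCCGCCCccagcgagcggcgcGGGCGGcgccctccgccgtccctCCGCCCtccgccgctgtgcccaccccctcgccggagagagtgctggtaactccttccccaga
CDK4 (chr12:57752311-57752560, minus strand): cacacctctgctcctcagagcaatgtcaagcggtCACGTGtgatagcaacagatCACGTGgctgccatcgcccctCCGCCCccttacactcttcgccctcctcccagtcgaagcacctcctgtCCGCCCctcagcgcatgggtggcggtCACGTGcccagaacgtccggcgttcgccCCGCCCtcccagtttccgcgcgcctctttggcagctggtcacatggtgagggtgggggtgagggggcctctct
The CCNE1 stretch held 7 GC boxes, and each of the other 2 held 3. The CDK6 window not shown (its stretch before the start is chr7:92833960-92834209) held 0 GC boxes. The stretches of CCND3, whose change was near 0, held 0 (chr6:41939206-41939455), 2 (chr6:41941809-41942058) and 5 (chr6:42048689-42048938). Those of CDKN1B and RB1 held 1 and 0. The GC content of the windows shown was 81.0% for CCNE1, 78.0% for CDK6 and 66.0% for CDK4. The median over all windows was 58.7%. A GC box was present in 45.0% of all 35116 promoter windows of 300 bases. CDK4 held 3 E-boxes in this stretch of 250 bases, and 7.26% of all windows of 300 bases held at least 1. The CDK6 window shown held 1 E-box over its 300 bases and 0 in the stretch before the start. None of the 9 windows of the members held an E2F word (TTTCCCGC, TTTGGCGC, TTTCGCGC or TTTGCCGC, both strands), which 3.31% of all windows held. The RB1 window (chr13:48476200-48476499, 38.3% GC) belongs to a start inside the gene, which begins at 48303726. The search therefore did not cover the beginning of RB1. These matches describe letters in these windows and not occupied sites. Entries for CCND1, CCND2, CCNE2 and CDK2 were not found in the table.

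Values are FPKM (fragments scaled to gene length and to library size). The length used is that of all annotated exons merged, not that of the transcripts expressed. Levels of different genes, and their order, sums, shares and ratios, are therefore approximate. A change of the same gene between the groups uses the same length in both. In the control libraries the order of mean level was CCND1 (60.9 FPKM), CDK4 (44.3), CDKN1B (34.0), CDK2 (18.6), CCNE1 (10.3), RB1 (10.3), CDK6 (6.64), CCND3 (2.82), CCNE2 (1.68) and CCND2 (0). Among neighbours in this order only CCNE1 and RB1 overlapped, with control libraries at 10.1 to 10.6 FPKM for CCNE1 and 9.68 to 11.2 FPKM for RB1. In the knockdown CDK4 (46.2 to 46.9 FPKM) lay above CCND1 (40.6 to 41.7 FPKM), the only change in this order. CCNE1 (13.1 to 13.9 FPKM) no longer overlapped RB1 (9.23 to 10.5 FPKM). Across all 6 libraries CCND1 stood above 94.0% of the genes tested and CCNE2 above 25.2%.

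**Figure D1:**
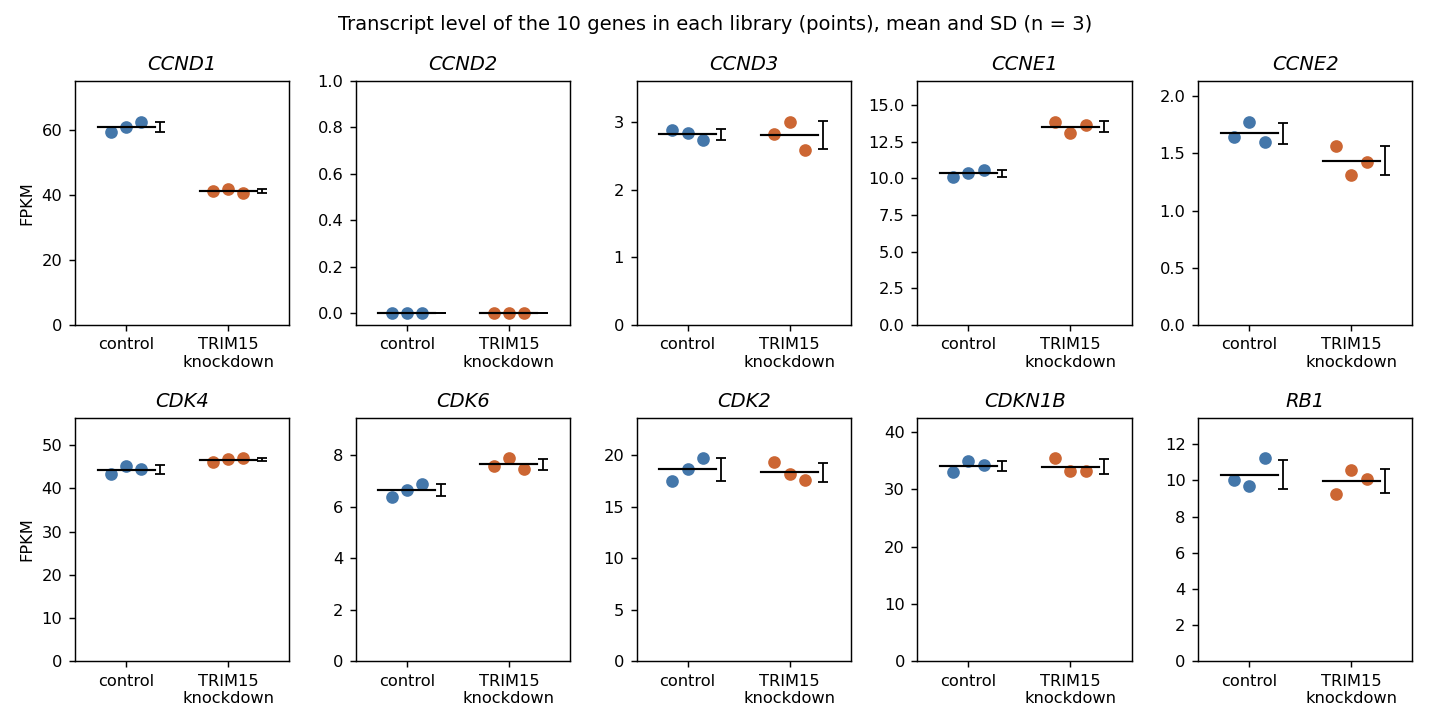
FPKM (vertical axis, linear, with its own scale for each gene) of the 10 genes in the 3 control and 3 knockdown libraries. Points are libraries, horizontal lines are means and bars beside them are SD (n = 3); CCND1 drops from 59.5 to 62.5 FPKM in control to 40.6 to 41.7 FPKM in knockdown, CCNE1 rises, and CCND2 is at 0 throughout.

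Of the 10 genes, 9 passed the filter on low values (0.5 FPKM or above in no fewer than 3 of the 6 libraries) and were tested among 14847 genes. With limma and Benjamini-Hochberg adjustment over all of them, 2 members were higher (CCNE1 and CDK6), 1 was lower (CCND1) and 6 did not pass an adjusted p of 0.05. Over all genes tested, 19.0% passed, 8.93% as higher and 10.1% as lower, and no test of the members' share against these was made. Control and knockdown libraries were fully separated in 5 members (CCND1, CCNE1, CCNE2, CDK4 and CDK6), against 37.8% of all genes tested. By size of change the members were unequal. The absolute log2 fold change of CCND1 exceeded that of 98.3% of the genes tested and that of CCNE1 exceeded 94.3%, whereas CDKN1B exceeded 2.27%. These ranks are on the log2(FPKM + 1) scale, which understates changes of low genes, so they depend in part on level.

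**Figure D2:**
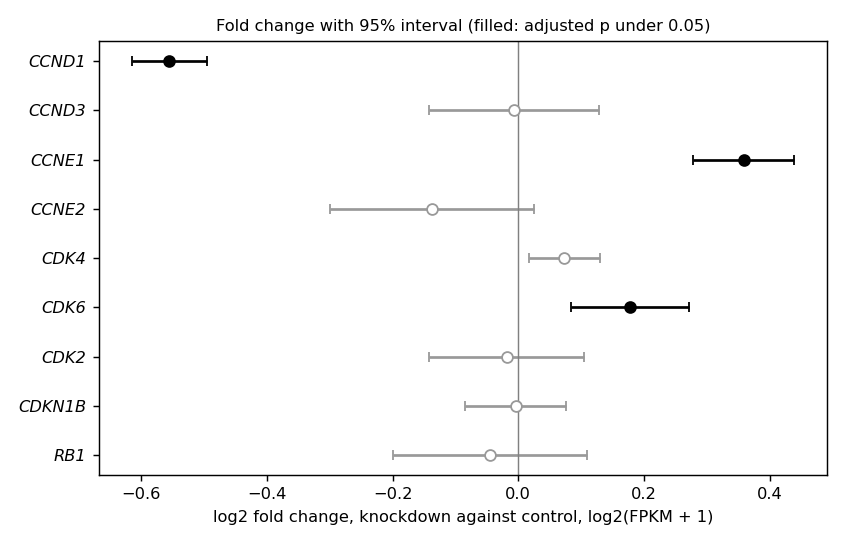
Log2 fold change of knockdown against control on the log2(FPKM + 1) scale for the 9 genes tested, with 95% intervals from limma. Filled points passed an adjusted p of 0.05: CCND1 is at -0.56, CCNE1 at 0.36 and CDK6 at 0.18, and the open points lie nearer 0.

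CCND1 carried nearly all of the cyclin D signal, and it fell. CCND1 (ENSG00000110092; chromosome 11, 69641087 to 69654474 on GRCh38, plus strand) encodes cyclin D1, the activator of CDK4 and CDK6. Its level was 59.5, 60.8 and 62.5 FPKM in control replicates 1 to 3 and 41.1, 41.7 and 40.6 FPKM in knockdown replicates 1 to 3. Every knockdown library lay below every control library, with a gap much wider than the spread within either group. The mean fell to 67.5% of control, from 60.9 ± 1.54 to 41.1 ± 0.558 FPKM (SD, n = 3). The log2 fold change was -0.56 (SE 0.0252, 95% interval -0.61 to -0.50, limma adjusted p = 0.000127). These values rest on 5185 to 5482 reads per control library and 3444 to 3983 per knockdown library. LTO1 overlaps 10.3% of the exon bases of CCND1 on the opposite strand, at 6.24 FPKM on average, and did not pass the test (log2 fold change 0.04, adjusted p = 0.659).

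CCND3 and CCND2 gave no matching change. CCND3 (chromosome 6, 41934933 to 42050357, minus strand), which encodes cyclin D3, was at 2.89, 2.84 and 2.73 FPKM in the control and 2.82, 3.01 and 2.59 FPKM in the knockdown libraries. The 2 groups overlapped fully, with a log2 fold change of -0.01 and a 95% interval of -0.14 to 0.13 (adjusted p = 0.956). That interval does not reach the change of CCND1. CCND2 (chromosome 12, 4273772 to 4305350, plus strand), which encodes cyclin D2, had 0 reads in all 6 libraries. AC008012.1 overlaps 13.8% of its exon bases on the same strand and was also listed at 0 FPKM. A count of 0 allows up to about 3 reads (upper 95% limit), or 0.0212 to 0.0239 FPKM by library, counting error only. The exact Poisson 95% interval, with limits on both sides, reaches 3.69 reads. CCND1 therefore made up 95.4 to 95.8% of summed cyclin D FPKM in control and 93.3 to 94.0% in knockdown.

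CCNE1 moved the other way. CCNE1 (ENSG00000105173; chromosome 19, 29811898 to 29824308, plus strand) encodes cyclin E1, the activator of CDK2. It was at 10.1, 10.4 and 10.6 FPKM in control replicates 1 to 3 and at 13.9, 13.1 and 13.6 FPKM in knockdown replicates 1 to 3. All knockdown libraries lay above all control libraries. The mean rose to 131% of control, from 10.3 ± 0.249 to 13.5 ± 0.391 FPKM (SD, n = 3), with a log2 fold change of 0.36 (SE 0.0339, 95% interval 0.28 to 0.44, limma adjusted p = 0.00101). Reads were 465 to 490 per control and 610 to 668 per knockdown library. No other annotated gene overlaps its exons.

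CCNE2, which encodes cyclin E2, did not rise with CCNE1. It was at 1.648, 1.778 and 1.604 FPKM in control and 1.57, 1.31 and 1.43 FPKM in knockdown libraries. The knockdown libraries were all lower, but the highest of them lay close to the lowest control library. The log2 fold change was -0.14 (95% interval -0.30 to 0.02, adjusted p = 0.219), an interval that lies wholly below that of CCNE1. At this low level the size depends on the pseudocount. It was -0.21 with a pseudocount of 0.1 FPKM, -0.05 with 5 FPKM and -0.21 with voom, and CCNE2 passed in none of these. CCNE2 had 110 to 138 reads per library. For scale, the control replicate 1 count of 131 has an exact Poisson 95% interval of 110 to 155 reads, and the knockdown replicate 1 count of 130 one of 109 to 154. INTS8 overlaps 37.0% of the exon bases of CCNE2 on the opposite strand and was at 8.66 ± 0.446 FPKM in control and 7.79 ± 0.391 FPKM in knockdown (SD, n = 3; log2 fold change -0.14, adjusted p = 0.108). The mean was 89.9% of control for INTS8 and 85.6% for CCNE2, whose log2 change the pseudocount of 1 FPKM shrinks more. The labels do not say whether counting used strand, and the part of INTS8 reads in the CCNE2 value was not tested. CCNE1 made up 85.3 to 86.8% of summed cyclin E FPKM in control and 89.9 to 90.9% in knockdown.

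The balance of D to E cyclin transcripts fell. Summed cyclin D was at 62.3, 63.7 and 65.3 FPKM in control and 43.9, 44.7 and 43.2 FPKM in knockdown libraries. Summed cyclin E was at 11.7, 12.1 and 12.2 FPKM in control and 15.5, 14.4 and 15.1 FPKM in knockdown libraries. The ratio of the sums was 5.31, 5.25 and 5.35 in control and 2.84, 3.10 and 2.87 in knockdown libraries. It went from 5.30 ± 0.0536 to 2.94 ± 0.142 (SD, n = 3), 55.4% of control and a log2 change of -0.85. The ratio of CCND1 to CCNE1 alone went from 5.89 ± 0.0163 to 3.04 ± 0.123, a log2 change of -0.96. Neither ratio had overlapping groups, and no test was run on them because they are scores over the chosen genes. The less abundant pair showed no such drop, since CCND3 over CCNE2 was at 1.598 to 1.753 in control and 1.80 to 2.29 in knockdown libraries. The shift in balance thus came from CCND1 and CCNE1. Within the E cyclins, the ratio of CCNE1 to CCNE2 was 5.82 to 6.60 in control and 8.86 to 10.0 in knockdown libraries.

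**Figure D3:**
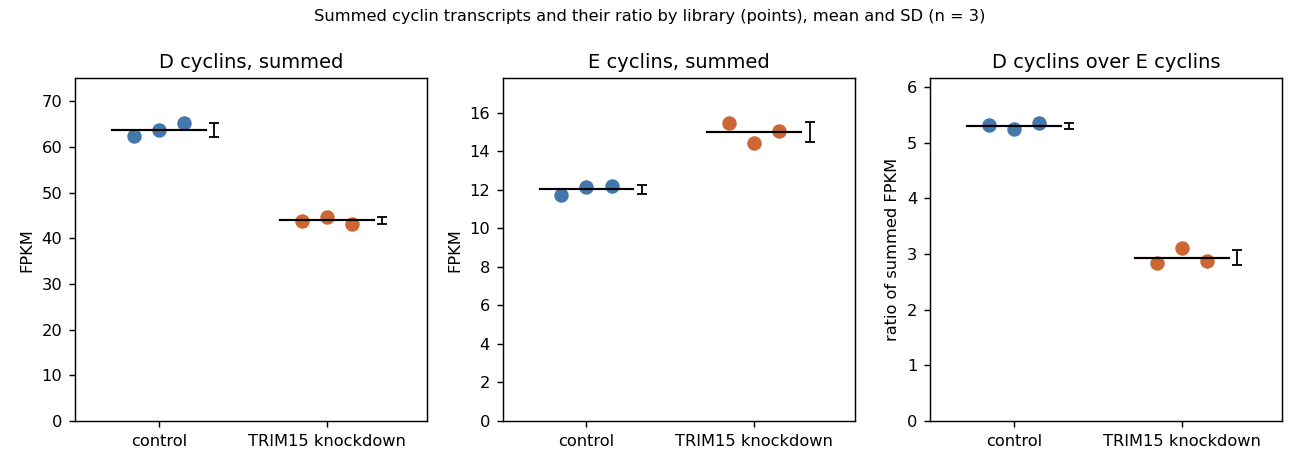
Summed FPKM of the 3 D cyclins, summed FPKM of the 2 E cyclins and the ratio of the sums (vertical axes, linear from 0), for 3 control and 3 knockdown libraries. Points are libraries, lines are means and bars are SD (n = 3); the ratio lies at 5.25 to 5.35 in control and 2.84 to 3.10 in knockdown.

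Among the kinases, CDK6 rose by a small amount. CDK6 (chromosome 7, 92604921 to 92836594, minus strand), a partner of D cyclins, was at 6.40, 6.65 and 6.88 FPKM in control and 7.60, 7.88 and 7.46 FPKM in knockdown libraries. The groups did not overlap, and the mean was 115% of control (log2 fold change 0.18, SE 0.0396, limma adjusted p = 0.0227). This call was lost when 1 library was left out, with adjusted p = 0.0598 and 0.0644 without control replicate 1 and 2, and 0.0638 and 0.076 without knockdown replicate 1 and 2. The log2 fold change was between 0.16 and 0.20 in all 6 such fits.

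CDK4 (chromosome 12, 57747727 to 57756013, minus strand), the more abundant D cyclin kinase, was at 43.2, 45.2 and 44.4 FPKM in control and 46.2, 46.8 and 46.9 FPKM in knockdown libraries. Its groups did not overlap either, but the difference was about 5% (105% of control) and did not pass the threshold (log2 fold change 0.07, 95% interval 0.02 to 0.13, adjusted p = 0.0785). It did pass when recovered read counts were tested with voom (0.10, adjusted p = 0.0243). That fit called 15.9% of all genes tested as higher and 12.3% as lower. Its median log2 fold change over all genes tested was 0.0234, against 0.00143 as reported, so voom moved genes in general slightly upward. TSPAN31 overlaps 43.2% of the exon bases of CDK4 on the opposite strand, at 1.88 ± 0.119 FPKM in control and 2.12 ± 0.251 FPKM in knockdown (SD, n = 3; adjusted p = 0.371). The ratio of CDK4 to CDK6 was 6.46 to 6.81 in control and 5.94 to 6.29 in knockdown libraries. With CCND1 lower and CDK4 not, the ratio of CCND1 to CDK4 transcripts went from 1.38 ± 0.0310 to 0.882 ± 0.0143 (SD, n = 3).

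CDK2 (chromosome 12, 55966769 to 55972784, plus strand), the partner of cyclin E, was at 17.5, 18.7 and 19.7 FPKM in control and 19.4, 18.1 and 17.6 FPKM in knockdown libraries. The groups overlapped over nearly their whole range, and the log2 fold change was -0.02 (95% interval -0.14 to 0.10, adjusted p = 0.847). The rise of CCNE1 was thus not matched by its kinase at the transcript level, as the 2 intervals did not overlap.

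The inhibitor and the substrate gave values near those of control. CDKN1B (chromosome 12, 12715058 to 12722371, plus strand) is a known target gene of FOXO factors, which the title of the series names through FOXO1. It was at 33.04, 34.91 and 34.14 FPKM in control and 35.4, 33.2 and 33.2 FPKM in knockdown libraries. The highest and the second lowest of the 6 values were both from the knockdown, and the 95% interval of the log2 fold change was narrow, from -0.08 to 0.08 (adjusted p = 0.953). RB1 (chromosome 13, 48303726 to 48599436, plus strand), which holds E2F factors inactive until it is phosphorylated, was at 10.0, 9.68 and 11.2 FPKM in control and 9.23, 10.5 and 10.1 FPKM in knockdown libraries. Its groups overlapped, with a log2 fold change of -0.05 and a wider interval, from -0.20 to 0.11 (adjusted p = 0.688). Because CDKN1B held its level while CCND1 fell, CCND1 over CDKN1B went from 1.79 ± 0.0452 to 1.21 ± 0.0477 (SD, n = 3).

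**Figure D4:**
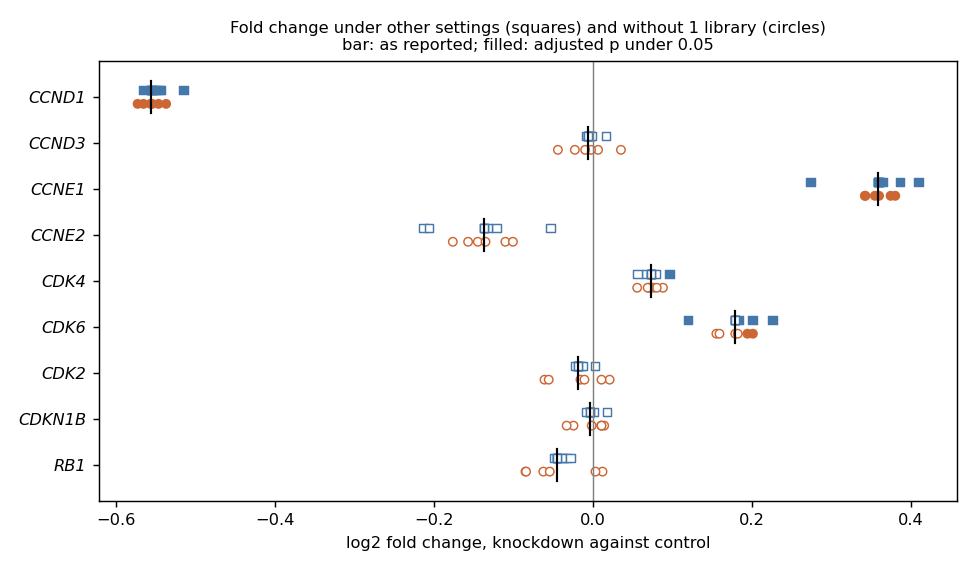
Log2 fold change of the 9 tested genes (horizontal axis) as reported (black bar), under other settings (blue squares) and without 1 library (orange circles). Filled symbols passed an adjusted p of 0.05: those of CCND1 and CCNE1 are all filled, those of CDK6 are mixed, and those of CCND3, CCNE2, CDK2, CDKN1B and RB1 are all open.

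The calls of CCND1 and CCNE1 held in all 15 other fits, which comprise 9 settings and the 6 fits without 1 library. The log2 fold change ranged from -0.57 to -0.51 for CCND1 and from 0.27 to 0.41 for CCNE1.

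Other cell cycle genes, cyclins and cyclin-dependent kinases were described by 9 lists with 109 genes, 104 of them tested. The lists reach beyond G1, to genes of S, G2 and M phase and to cyclins and kinases of transcription. Of these, 4 were higher, 18 lower and 82 passed in neither direction. Their median log2 fold change was -0.02, against 0.00143 for all genes tested. The share lower (17.3%) may be read against 10.1% of all genes, and the share higher (3.85%) against 8.93%. For the list counts given also at an unadjusted p of 0.05, 16.4% of all genes tested were higher and 16.3% lower at that threshold, and for those with voom 15.9% and 12.3%. In limma's test other kinase inhibitors had 0 higher and 2 lower of 7 (0 and 3 at an unadjusted p of 0.05, 1 and 2 with voom), with a list median of -0.07. The 2 lower as reported were CDKN3 (-0.24), which encodes a phosphatase that acts on CDKs, and CDKN1C (-0.26). CDKN1C was at 1.33 ± 0.0985 and 0.949 ± 0.0329 FPKM (SD, n = 3). The call of CDKN1C was lost without any 1 of the 6 libraries (adjusted p = 0.0549 to 0.118). It was also lost with voom (0.105), no filter (0.138) and the replicate block (0.107). CDKN1A was at 10.96 ± 0.777 and 9.42 ± 0.467 FPKM (adjusted p = 0.0551) and CDKN2A at 14.8 ± 0.808 and 16.3 ± 1.12 FPKM (adjusted p = 0.171); both are shown as well-known inhibitors, chosen after their values were seen.

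The list of RB1-like pocket proteins, E2F and DP factors had 1 higher and 2 lower of 12 (median 0.04). E2F1, an activator of S phase genes chosen after its value was seen, was at 49.5 ± 1.22 and 50.7 ± 0.805 FPKM (SD, n = 3; adjusted p = 0.398). The activator gene E2F3 (-0.20), the repressor gene E2F4 (-0.10) and TFDP1 (0.11), which encodes a dimer partner of E2Fs, passed. Their calls were fragile. E2F3 was lost without knockdown replicate 1 or 3 (adjusted p = 0.0544 and 0.0552). E2F4 was lost without any 1 of the 6 libraries (0.0645 to 0.11), and TFDP1 without any but control replicate 1 (0.0589 to 0.106). With the replicate block E2F3, E2F4 and TFDP1 were all lost (0.0586, 0.0826 and 0.0978). E2F4 and TFDP1 were also lost with no filter (0.0756 and 0.063) and with no variance trend (0.104 and 0.0839). With voom E2F4 was lost (0.109). Of the E2F target genes of S phase entry, limma called 0 higher and 6 lower of 23 (1 and 11 unadjusted, 1 and 7 with voom), with a list median of -0.07. The largest were the thymidylate synthase gene TYMS (18.3 ± 1.35 to 13.8 ± 0.341 FPKM, -0.38), the replicative helicase gene MCM3 (142 ± 2.98 to 110 ± 0.902 FPKM, -0.37) and the ribonucleotide reductase gene RRM1 (-0.14). The other 17, among them PCNA (adjusted p = 0.108), did not pass. Among MuvB and DREAM parts, which repress cell cycle genes together with pocket proteins, limma called 0 higher and 1 lower of 5 (1 and 1 unadjusted, 0 and 1 with voom), the chromatin protein gene RBBP4 (-0.19).

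In the same limma test 0 of 5 later cyclins and CDK1 were higher and 3 were lower (0 and 3 both unadjusted and with voom). CCNA2, which encodes the cyclin that follows cyclin E in S phase, was at -0.39, CDK1, the mitotic kinase, at -0.31 and CCNB1, a mitotic cyclin, at -0.10 on the log2 scale. The call of CCNB1 was lost with no variance trend (adjusted p = 0.0706). Among switches of CDK activity limma called 0 higher and 1 lower of 8 (1 and 2 unadjusted, 1 and 1 with voom), namely the phosphatase gene CDC25B (49.7 ± 1.33 to 39.1 ± 0.581 FPKM, SD, n = 3; -0.34). Of the ubiquitin ligase parts for G1 cyclins and CDKN1B, 1 was higher and 2 lower of 17. AMBRA1, a substrate receptor for cyclin D proteins, rose from 4.89 ± 0.248 to 6.13 ± 0.125 FPKM (0.28, adjusted p = 0.00673). DTL, a receptor of a CUL4 ligase, fell (-0.20), and so did the adaptor SKP1 (-0.15). The call of SKP1 was lost without any library but knockdown replicate 2 (adjusted p = 0.0591 to 0.0727). It was also lost with no filter (0.0646), no variance trend (0.0626) and the replicate block (0.0686). SKP2, the receptor for the CDKN1B protein, was at 82.7 ± 1.05 and 82.8 ± 0.631 FPKM (adjusted p = 0.954), a gene chosen after its value was seen. For other cyclins limma gave 0 higher and 1 lower of 14 (2 and 2 unadjusted, 2 and 1 with voom). The lower one was CCNC (22.7 to 9.36 FPKM on average), a cyclin of the Mediator kinase module. Other cyclin-dependent kinases had 2 higher and 0 lower of 13 by limma (4 and 0 unadjusted, 4 and 1 with voom). The 2 were CDK9 (0.29), a kinase of transcription elongation, and CDK16 (0.16).

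**Figure D5:**
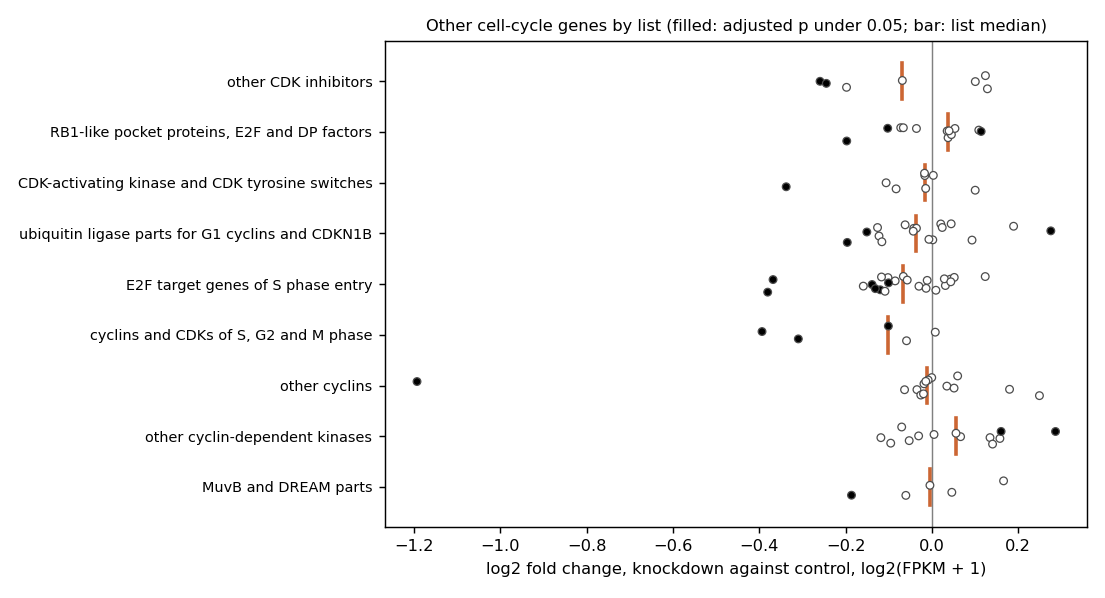
Log2 fold change (horizontal axis, log2(FPKM + 1) scale) of the 104 tested genes of the 9 lists of cell cycle genes, other cyclins and other kinases, 1 point per gene, with the list median as an orange bar. Filled points passed an adjusted p of 0.05; the medians lie between -0.10 and 0.06, and the point farthest left is CCNC at -1.19.

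Genes whose levels followed CCND1 and CCNE1 most closely over the 6 libraries were taken from 4349 protein-coding genes with at least 10 FPKM on average. For CCND1 they were the transferrin receptor gene TFRC (Pearson's r = 0.9998), TMEM123 (0.9998) and the RhoGAP gene ARHGAP5 (0.9995). For CCNE1 they were ISG20L2 (0.9992), the survivin gene BIRC5 (0.998) and the stress factor gene ATF3 (0.998). These r values describe 6 libraries in 2 groups, so they mainly reflect the shared step between groups, and they carry no p.

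Across the whole table, reads per library were 17715210 to 18217903 in control and 17332508 to 19556855 in knockdown. TRIM15, the targeted gene, was at 5.17, 5.09 and 4.88 FPKM in control and 3.23, 2.11 and 2.51 FPKM in knockdown libraries (51.8% of control; limma adjusted p = 0.00416). An exact permutation test of 3 against 3 libraries allows no p below 0.1, so none is given. All 8 hepatocyte lineage markers listed, ALB and AFP among them, passed the filter (1, FGB, was lower at -0.22), with a summed level of 1518 to 1558 FPKM in control and 1514 to 1546 FPKM in knockdown. All 6 endothelial markers were below 0.5 FPKM in every library, with CDH5 at 0. The 7 fibroblast and stellate markers summed to 62.5 to 66.2 FPKM in control and 55.6 to 57.8 FPKM in knockdown, mostly LUM. Of the 3 tested markers of this list 2 were lower, LUM (57.6 ± 1.95 and 50.7 ± 1.25 FPKM, SD, n = 3; -0.18, limma adjusted p = 0.00931) and COL1A2 (5.39 ± 0.0660 and 4.66 ± 0.250 FPKM; -0.18, limma adjusted p = 0.0365). COL1A1, also tested, did not pass (log2 fold change 0.01, limma adjusted p = 0.965). COL3A1 was below the filter and not tested, but its knockdown libraries all lay above its control libraries (154.9% of control). DCN, PDGFRB and ACTA2 were near 0. The 7 immune markers summed to 16.3 to 17.7 and 16.5 to 17.9 FPKM, mostly CD14, with PTPRC near 0. The part of these markers in the results on the cyclins was not tested. In such bulk samples fewer cells in a phase and less RNA per cell cannot be told apart.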

How the data were processed

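The deposited table gave FPKM values that the authors had computed, with 1 column per library and a gene length in bases; the aligner and the counting step are not given in the sources used here. The submitters' processing notes list a mouse build, yet all 58735 identifiers with their start, end and strand equalled human GENCODE release 29, so coordinates are on GRCh38. Gene lengths equalled the merged exon length for all 10 members. After multiplication by gene length each library's values fell on whole steps (100% of values above 0, tolerance 0.01), which gave back whole reads. The library size implied by the FPKM differed from the sum of these reads by -0.370 to -0.359% in control libraries. In knockdown libraries the difference was 1.04 to 1.27%. Knockdown FPKM thus lie slightly lower, relative to control, than under scaling to summed reads, which voom used.

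Knockdown was compared with control by limma 3.58.1 in R 4.3.3 on log2(FPKM + 1), with a mean-variance trend, two-sided, and Benjamini-Hochberg adjustment over the 14847 genes that reached 0.5 FPKM in no fewer than 3 of 6 libraries. The pseudocount of 1 understates changes of low genes. Ratios used FPKM without it. The fitting code was run on simulated reads with known changes, as a check of the code only. The spread was set to a fixed value there, so that run does not bear on the calls reported here. The members and lists were chosen with earlier results of these data known; from each list up to 3 called genes with the largest change are named. Alternatives were other pseudocounts, filters and scalings, no trend, replicate number as a block, voom on whole reads, and leaving out each library.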

Additional observations from a re-analysis of the deposited data

How the results depend on the processing

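CCND1 and CCNE1 kept their direction and call under all 9 other settings and without each of the 6 libraries. The number of members lower was 1 in all 15 fits. The number of members higher was 2 as reported and 1 with the replicate block, and ranged from 1 to 2 when 1 library was left out, as CDK6 was lost. With the replicate block the adjusted p of CDK6 was 0.0643, of CCND1 0.00417 and of CCNE1 0.0108. The numbers pair no samples by the labels, and deviations of same-numbered libraries were hardly correlated (0.0125, 0.00862 and 0.0133), though each library correlated best with its own number. Over all genes the block gave 883 higher and 1030 lower. With voom on recovered reads CDK4 passed (adjusted p = 0.0243), and CDK6 stayed past the threshold, so 3 members were higher. The log2 change of CCND1 over CCNE1 was -0.96 as reported and -0.91 with a pseudocount of 1 FPKM on each sum, which by construction shrinks ratios of low genes. That of summed D over E cyclins lay between -0.89 and -0.81 under every alternative run. All genes called numbered 2824 as reported, 1888 with no filter, 4186 with voom and 1771 without knockdown replicate 3; the cause was not tested. With a filter of 2 FPKM CCNE2 was not tested, so it has no value there. Depth limits CCNE2 and CCND3 most, at 110 to 345 reads per library.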
